A study of Mus musculus with 113 samples.

Results

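A set of 9 transcription factor genes was followed through the neural differentiation of mouse embryonic stem cells (mESCs): *Pou3f2*, *Pou3f3*, *Pou3f4*, *Nfia*, *Nfib*, *Nfix*, *Meis1*, *Meis2* and *Zfp521*. They were taken by gene symbol from the 4 deposited expression tables, which together name 23739 genes. All 9 are in the tables of SFEB populations, adherent cultures and E14 cells, and 6 are in the table of single cells. The study collected 113 samples. R1 mESCs were differentiated as floating aggregates without serum (SFEB) and sampled as 22 cell populations and 64 single cells, 8 at each of 8 time points. Of the populations, 14 form a first series from 0 to 142 h and 8 form a parallel series from 0 to 216 h at the times of the single cells. R1 mESCs were also differentiated on gelatin in N2B27 medium as an adherent monoculture, with 15 libraries from 0 to 216 h. In both R1 systems cells were replated on day 6. E14 mESCs, wild type (WT) or with a CRISPR deletion in *Fyn* (*Fyn* KO, a clonal line), were sampled at days 0 and 4 of neural induction with 3 replicates each, and nothing in the labels says whether these are separate cultures, so their p-values measure only the spread between these samples.

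The POU3F proteins carry a POU domain and a homeodomain and act in neural progenitors and newborn neurons. MEIS1 and MEIS2 are homeodomain proteins of the TALE class that bind DNA together with PBX partners. The NFI proteins bind a palindromic DNA site and are known for the late phase of neural progenitors, when these begin to make glia. ZFP521 is a zinc finger protein known to promote the first steps from mESCs to neural cells, and is a relative of ZFP423, which works with EBF factors.

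In mm9 with the GENCODE M1 annotation, the 3 Pou3f genes are single-exon genes, with *Pou3f3* at chr1:42753991-42757052 on the plus strand, *Pou3f2* at chr4:22413791-22415480 on the minus strand and *Pou3f4* at chrX:108009729-108010910 on the plus strand. *Meis1* (chr11:18780433-18918961) and *Meis2* (chr2:115688800-115891575) lie on the minus strand and have up to 13 and 14 exons in a transcript. The 5 genes rose together in the cultures described below, so the 300 bases around their starts are shown for comparison. They are the RefSeq promoters of build GRCm38.p6, from 250 bases before to 50 bases after the start, each 5′ to 3′ on the strand of the gene. Capitals mark the TATA box (letters TATAAA), the CCAAT box (letters CCAAT), the GC box (letters GGGCGG), the octamer bound by POU proteins (letters ATGCAAAT) and a MEIS motif (letters TGACAG), each searched on both strands.
Pou3f2 (chr4:22488317-22488616, minus strand): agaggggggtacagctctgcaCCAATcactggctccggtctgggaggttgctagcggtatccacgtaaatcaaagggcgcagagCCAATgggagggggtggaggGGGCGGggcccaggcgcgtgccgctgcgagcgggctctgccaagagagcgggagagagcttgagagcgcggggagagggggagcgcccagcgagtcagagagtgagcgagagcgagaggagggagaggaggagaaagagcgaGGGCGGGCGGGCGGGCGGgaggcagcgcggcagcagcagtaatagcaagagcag
Pou3f3 (chr1:42695518-42695817, plus strand): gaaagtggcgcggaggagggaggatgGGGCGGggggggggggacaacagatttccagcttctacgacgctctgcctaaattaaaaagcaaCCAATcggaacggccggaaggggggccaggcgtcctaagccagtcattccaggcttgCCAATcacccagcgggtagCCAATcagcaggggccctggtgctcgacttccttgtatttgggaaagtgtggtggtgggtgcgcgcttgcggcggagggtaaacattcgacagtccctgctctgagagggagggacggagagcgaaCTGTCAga
Pou3f4 (chrX:110814129-110814428, plus strand): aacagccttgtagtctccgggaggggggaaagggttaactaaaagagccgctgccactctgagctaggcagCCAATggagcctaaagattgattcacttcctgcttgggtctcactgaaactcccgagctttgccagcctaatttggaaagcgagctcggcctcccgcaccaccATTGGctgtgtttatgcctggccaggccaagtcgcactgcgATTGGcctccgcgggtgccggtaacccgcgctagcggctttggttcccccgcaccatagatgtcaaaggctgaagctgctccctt
Meis1 (chr11:19018920-19019219, minus strand): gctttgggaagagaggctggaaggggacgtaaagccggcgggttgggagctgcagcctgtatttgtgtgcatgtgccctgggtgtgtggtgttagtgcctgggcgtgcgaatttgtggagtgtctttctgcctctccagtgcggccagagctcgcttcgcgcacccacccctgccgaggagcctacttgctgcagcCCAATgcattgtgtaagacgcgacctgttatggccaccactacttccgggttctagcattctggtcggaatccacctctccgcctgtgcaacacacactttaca
Meis2 (chr2:116064570-116064869, minus strand): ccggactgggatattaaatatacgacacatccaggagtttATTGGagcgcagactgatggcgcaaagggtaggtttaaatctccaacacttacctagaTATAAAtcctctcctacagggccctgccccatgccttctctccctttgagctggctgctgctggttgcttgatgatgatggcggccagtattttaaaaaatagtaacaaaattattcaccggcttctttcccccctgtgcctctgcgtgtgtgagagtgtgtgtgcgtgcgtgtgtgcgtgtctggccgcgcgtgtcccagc

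CCAAT was present in all 5 promoters, with 3 matches each in *Pou3f3* and *Pou3f4*, 2 in *Pou3f2* and 1 each in *Meis1* and *Meis2*. It was also in the promoter of *Nfia* and in most of those listed for *Nfix*, which are not among the 5. CCAAT was present in 37.4% of the 32851 promoters of the same length in the RefSeq table. GGGCGG had 5 matches in *Pou3f2*, of which 4 overlap one another in a single run, and 1 in *Pou3f3*, and 35.7% of all promoters hold it. TATAAA was found in *Meis2* (13.6% of all promoters) and TGACAG in *Pou3f3* (19.2%). The octamer was in none of the 5, and in 1.74% of all promoters. The 5 promoters held 13 to 24 CpG dinucleotides, against a median of 7 over all promoters. The table has a promoter for 7 of the 9 genes.

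The values of the 3 bulk tables are FPKM, fragment counts scaled to transcript length and library size, so levels can be compared between genes. Read depth behind them is unknown. The SFEB populations had been corrected with ComBat before deposition, which leaves values below 0, and these were set to 0. Except for 0 h in SFEB, no time point was repeated within a culture system, so samples up to 24 h (early) were compared with samples over 100 h (late) in limma on log2(FPKM + 1) over all genes. SFEB had 7 early, 9 middle and 6 late samples, and adherent monoculture had 4, 6 and 5. Standard errors thus include the changes within a window. Successive times of the same courses stand in for replicates, so the p-values measure the spread between these samples and not between repeat cultures. Summed over 6 pluripotency markers, SFEB populations fell from a median of 1354 FPKM early to 178 late, and 5 of 6 neural progenitor markers were called higher and 1 lower. Of 7 neuronal markers tested 6 were called higher, of 4 mesoderm markers 2 and of 2 endoderm markers 1, and of 3 glial markers 1 was called higher and 1 lower. In adherent monoculture the pluripotency sum fell from a median of 1395 to 215 FPKM, 5 neural progenitor markers were called higher and 1 lower, and 6 of 7 neuronal, 2 of 3 glial and all 4 tested endoderm markers were called higher. The sum of 10 fibroblast markers was 149 to 1144 FPKM in early SFEB samples and 13.6 to 112 in late ones.

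A group of 6 genes rose in both culture systems. In SFEB populations 6 of the 9 were called higher and 2 lower at a Benjamini-Hochberg adjusted p of 0.05, where 35.5% of all 13363 genes tested were called higher and 28.1% lower. In adherent monoculture 8 of the 9 passed the filter (1 FPKM in at least 3 samples) and again 6 were called higher and 2 lower, against 32.5% and 23.6% of all genes. With no filter 7 of the 9 were called higher there, *Nfia* being the added one, and the share of all genes in that fit is not given here. The 6 were the 3 Pou3f genes, both Meis genes and *Zfp521*, and the 2 were *Nfib* and *Nfix*. The median difference was 3.26 over the 9 in SFEB and 3.48 over the 8 tested in adherent monoculture on the log2 scale, and that over all genes tested was 0.06 and 0.10. In bulk samples, more cells with a transcript and more transcript per cell cannot be told apart.

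**Figure D1:**
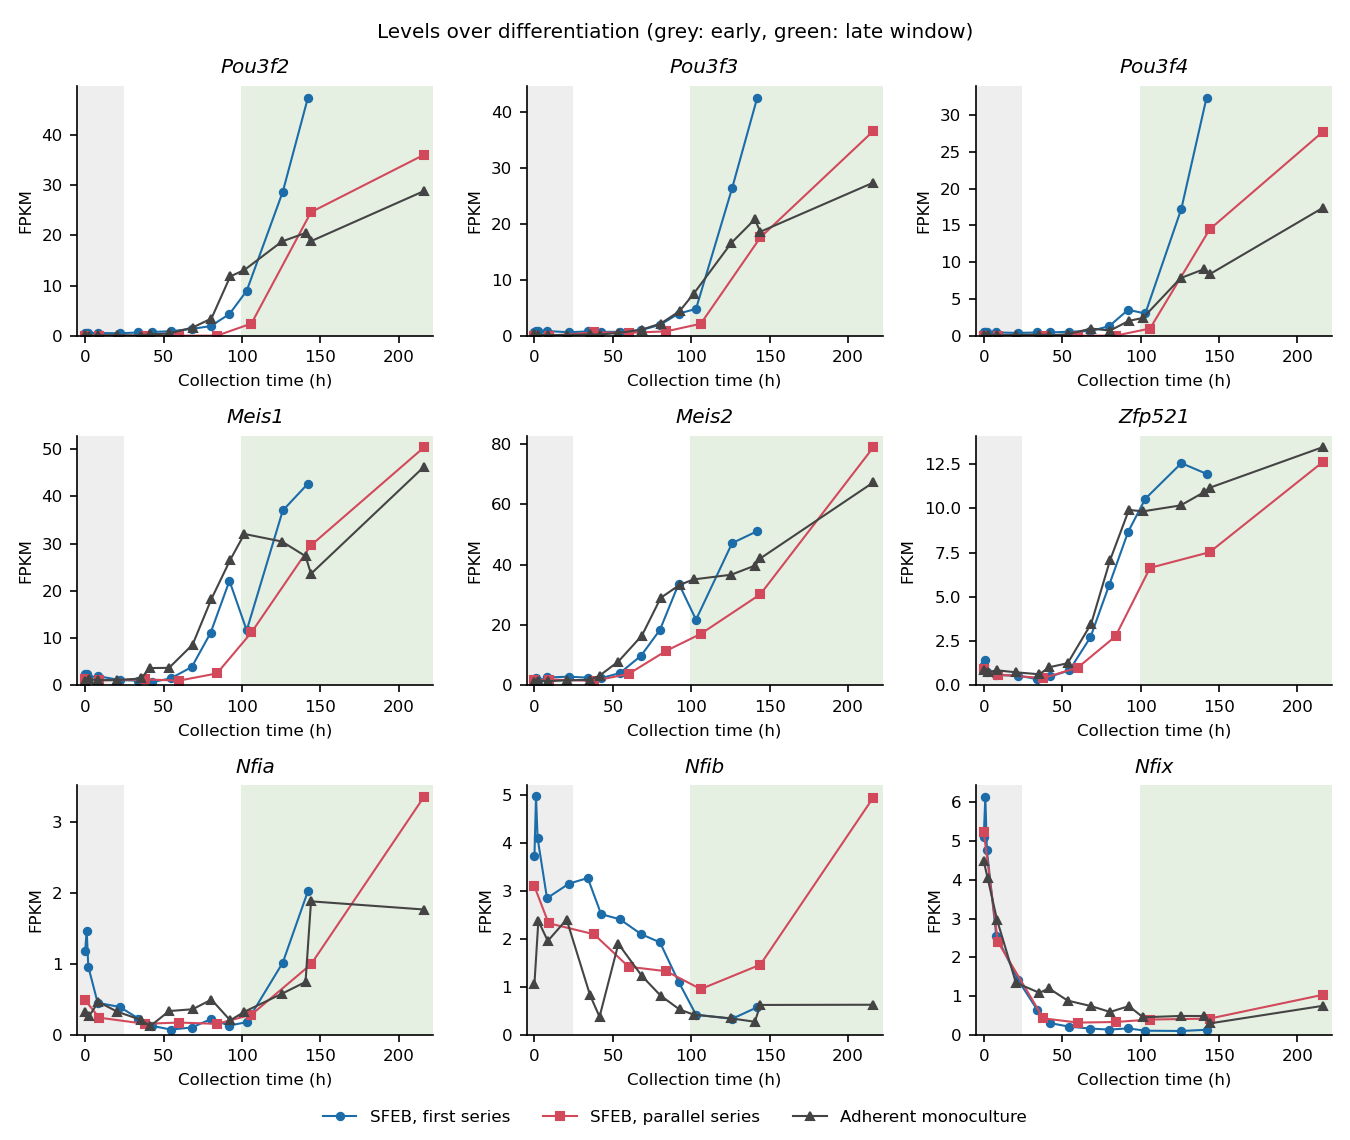
FPKM (y axis) of the 9 genes against collection time in hours (x axis) for the first SFEB series (circles), the parallel SFEB series (squares) and adherent monoculture (triangles), 1 library per point, with SFEB values below 0 drawn at 0. *Pou3f2*, *Pou3f3*, *Pou3f4*, *Meis1*, *Meis2* and *Zfp521* rise in all 3 courses, while *Nfix* falls within the first 2 days.

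*Pou3f2* had the largest difference of the set. In SFEB it was between 0 and 0.53 FPKM in the early samples (median 0.48) and between 2.42 and 47.4 in the late samples (median 26.7). In adherent monoculture it was 0.11, 0, 0.072 and 0.097 FPKM at 0, 2.5, 8.5 and 20.5 h, and 13.1, 18.8, 20.5, 18.9 and 28.9 FPKM at 101.5, 125.5, 140.5, 144 and 216 h. Early and late samples did not overlap in either system. How many of all genes separate in this way was not counted, here or for the genes below. The difference was 4.02 ± 0.43 (SE) in SFEB (limma, adjusted p = 1.4e-07) and 4.26 ± 0.55 in adherent monoculture (limma, adjusted p = 4.3e-05).

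*Pou3f3* and *Pou3f4*, the other class III genes of the set, also rose late. *Pou3f3* reached 2.13 to 42.4 FPKM (median 21.9) in late SFEB samples, from at most 0.92 early. *Pou3f4* reached 0.98 to 32.3 FPKM (median 15.9), from at most 0.56. For both, early and late SFEB samples were separate. The differences were 3.52 ± 0.45 for *Pou3f3* (limma, adjusted p = 1.3e-06) and 3.26 ± 0.48 for *Pou3f4* (limma, adjusted p = 6.2e-06). In adherent monoculture *Pou3f3* rose by 3.94 ± 0.41 and *Pou3f4* by 3.01 ± 0.38, and their 216 h levels were 27.3 and 17.4 FPKM. No early sample of either system held any of these 3 genes at 1 FPKM, so all 3 passed the filter through later samples. With no filter the differences of *Pou3f2*, *Pou3f3* and *Pou3f4* were 4.02, 3.52 and 3.26 in SFEB (limma, adjusted p = 1.4e-07, 1.3e-06 and 6.3e-06) and 4.26, 3.94 and 3.01 in adherent monoculture (limma, adjusted p = 4.3e-05, 1.7e-05 and 3.9e-05). The first SFEB series held *Pou3f2* between 0.48 and 0.53 FPKM early, whereas the parallel series was deposited at -0.35 and -0.30, and adherent libraries, which carry no stated correction, were at 0.11 or less. The part of the batch correction in these early values was not tested.

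*Pou3f1*, the remaining class III gene, took a different course. It peaked at 55.5 FPKM at 42.5 h in the first SFEB series and at 47.4 FPKM at 53.5 h in adherent monoculture, before *Pou3f2* passed 1 FPKM in either. By 142 h it was at 2.03 FPKM in SFEB, when *Pou3f2* was at 47.4. Its late to early difference was 0.38 ± 0.31 in SFEB (limma, adjusted p = 0.30) and 1.88 ± 0.42 in adherent monoculture (limma, adjusted p = 0.0015). Of 10 other POU genes, 9 were tested in SFEB, where 1 was called higher and 2 lower, and 7 in adherent monoculture, where 3 were called higher and 1 lower. Of all genes 35.5% were called higher and 28.1% lower in SFEB, and 32.5% and 23.6% in adherent monoculture. *Pou5f1*, which encodes the pluripotency factor OCT4, fell by 2.72 in SFEB and by 2.37 in adherent monoculture.

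*Meis2* reached the highest level of the 9 genes. In SFEB it was 1.299 to 2.85 FPKM early (median 1.94) and 17.02 to 78.8 late (median 38.6). In adherent monoculture it was 1.05, 1.55, 1.35 and 1.65 FPKM in the 4 early samples and 35.1, 36.6, 39.6, 42.0 and 67.2 in the 5 late ones. The groups were separate in both systems. It rose by 3.69 ± 0.49 in SFEB (limma, adjusted p = 2.0e-06) and by 4.20 ± 0.59 in adherent monoculture (limma, adjusted p = 6.5e-05).

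*Meis1* ranged from 1.05 to 2.49 FPKM in early SFEB samples (median 1.69) and from 11.2 to 50.3 in late ones (median 33.3). In adherent monoculture it rose from at most 1.31 FPKM to between 23.6 and 46.2. Both sets of groups were separate, with differences of 3.46 ± 0.51 and 3.94 ± 0.54 (limma, adjusted p = 6.1e-06 and 5.2e-05). The 2 Meis genes shared a drop at 103 h of the first SFEB series. *Meis1* was 22.1 FPKM at 92 h, 11.6 at 103 h and 37.0 at 126 h, and *Meis2* was 33.7, 21.7 and 47.1. *Pou3f2* rose over the same samples, from 4.31 to 8.96 and 28.7 FPKM. The 103 h library also had a mesoderm marker sum of 22.5 FPKM, against 7.18 at 92 h and 7.41 at 126 h, and an endoderm sum of 6.22, against 2.92 and 3.70, and their part in the drop was not tested.

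Of 9 NFI and TALE relatives, 6 were called higher in SFEB, against 35.5% of all genes, and 3 lower, against 28.1%. In adherent monoculture 5 were called higher, against 32.5%, and 3 lower, against 23.6%. *Pbx3*, which encodes a DNA-binding partner of MEIS, rose by 2.25 ± 0.25 in SFEB and 2.36 ± 0.29 in adherent monoculture. *Meis3* rose by 2.35 ± 0.34 and 2.52 ± 0.43, and *Pknox2*, a TALE gene, by 2.64 ± 0.30 and 2.67 ± 0.36. *Pbx2* and *Pbx4* were higher in both systems and *Tgif2* in SFEB alone (0.28, limma, adjusted p = 0.032, against 0.01, adjusted p = 0.93). *Nfic*, *Pknox1* and *Tgif1* were lower in both. The difference between the systems was not tested.

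*Zfp521* was 0.55 to 1.43 FPKM early (median 0.77) and 6.64 to 12.6 late (median 11.3) in SFEB. In adherent monoculture it was 0.73 to 0.86 FPKM early and 9.84 to 13.5 late. It rose by 2.66 ± 0.37 and 2.75 ± 0.45 (limma, adjusted p = 3.3e-06 and 0.00017), with no overlap. Fewer than 3 early samples of each system held it at 1 FPKM, so it passed the filter through later samples, and with no filter the differences were 2.66 and 2.75 (limma, adjusted p = 3.3e-06 and 0.00017). It was already at 8.67 FPKM at 92 h of the first SFEB series and at 9.91 FPKM at 92.5 h in adherent monoculture. All 5 genes listed as its relatives and partners, *Zfp423* and *Ebf1* to *Ebf4*, were called higher in both systems, against 35.5% of all genes in SFEB and 32.5% in adherent monoculture. *Zfp423* rose by 1.21 ± 0.22 and 0.85 ± 0.15 from early medians of 9.97 and 13.6 FPKM, so it was already well above *Zfp521* in mESCs, and *Ebf3* rose by 2.28 ± 0.41 and 2.99 ± 0.44. *Zfp521* lies on the minus strand of chromosome 18 at 13845522 to 14131242 in mm9.

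**Figure D2:**
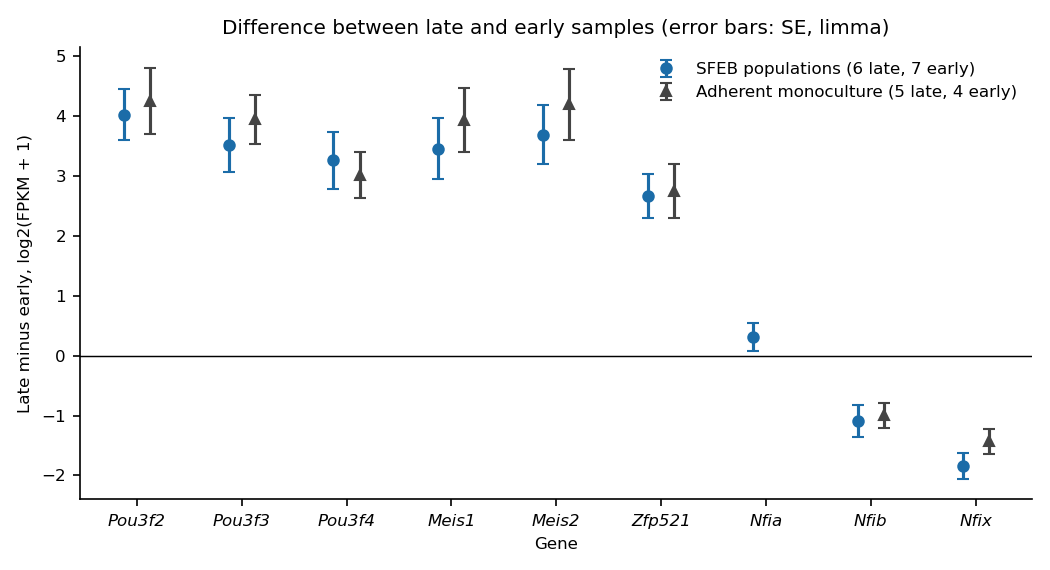
Late minus early difference on the log2(FPKM + 1) scale (y axis) for each gene (x axis) in SFEB populations (circles) and adherent monoculture (triangles), with the SE from limma as error bars. The 6 rising genes lie between 2.66 and 4.26, *Nfib* and *Nfix* lie below 0, and *Nfia* has no adherent value because it did not pass the filter.

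The order in which the genes came up was read as the first time from which a gene stayed at 1 FPKM or more and at least 2 times its highest early sample. In the first SFEB series *Pou3f2* and *Meis2* met this at 68 h, and *Pou3f3*, *Pou3f4*, *Meis1* and *Zfp521* at 80 h. In adherent monoculture *Meis1* met it at 41.5 h, *Meis2* at 53.5 h, *Pou3f2*, *Pou3f3* and *Zfp521* at 68.5 h and *Pou3f4* at 92.5 h. In the parallel SFEB series *Meis2* and *Zfp521* met it at 84 h, *Pou3f2*, *Pou3f3* and *Meis1* at 106 h and *Pou3f4* at 144 h. *Meis2* was thus among the earliest, and *Pou3f4* among the latest, in each of the 3 courses. These times carry no error, since each time is 1 library, and steps between samples are up to 72 h.

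At 216 h, the last time point, *Meis2* led (78.8 FPKM in SFEB and 67.2 in adherent monoculture), followed by *Meis1* (50.3 and 46.2). *Pou3f3* and *Pou3f2* were next, at 36.5 and 36.1 FPKM in SFEB and 27.3 and 28.9 in adherent monoculture, and their order differed between the systems. *Pou3f4* (27.7 and 17.4) and *Zfp521* (12.6 and 13.5) came after them, and the NFI genes were below 5 FPKM. With 1 library each, no error can be put on this order. At close times the SFEB series differed, as *Pou3f2* was 47.4 FPKM at 142 h of the first series and 24.6 at 144 h of the parallel series, and *Pou3f4* 32.3 and 14.5.

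Each SFEB series was also fitted alone. *Pou3f2* rose by 4.02 ± 0.42 within the first series and by 3.89 ± 0.82 within the parallel series, and *Meis1* by 3.25 ± 0.71 and 3.63 ± 0.52. *Pou3f4* did not pass the filter in the parallel series alone. In the model with a series by window term none of the 9 genes was called, where 2 of 13363 genes (0.015%) were, and 924 genes had an unadjusted p under 0.05. *Nfib* had the largest such term, 1.44 ± 0.44 (limma, adjusted p = 0.44). ComBat had been run before deposition on batches not named here, so differences between the series may already have been reduced. The late window also ends at 142 h in the first series and at 216 h in the parallel one. The fit thus cannot show that the series agree.

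The NFI genes did not follow the other 6. *Nfix* was highest in the first hours. In the first SFEB series it was 5.10, 6.14, 4.76, 2.55 and 1.41 FPKM at 0, 1, 2, 8 and 22 h. In SFEB as a whole it was 1.41 to 6.14 FPKM in early samples (median 4.76) and 0.10 to 1.03 in late ones (median 0.26). In the 4 early adherent samples it was 4.47, 4.04, 2.96 and 1.35 FPKM, a steady fall with time, and in the 5 late ones 0.45, 0.49, 0.49, 0.30 and 0.75. The groups were separate in both systems. *Nfix* fell by 1.84 ± 0.21 in SFEB (limma, adjusted p = 3.5e-07) and by 1.43 ± 0.21 in adherent monoculture (limma, adjusted p = 7.3e-05).

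*Nfib* fell in both systems and was high again in the 216 h SFEB population. In the first SFEB series it was 2.85 to 4.96 FPKM in early samples and 0.42, 0.34 and 0.58 at 103, 126 and 142 h. In the parallel series it was 3.09 and 2.32 FPKM early, and 0.95, 1.46 and 4.94 at 106, 144 and 216 h. Because of the 216 h population, early and late SFEB samples overlapped. In adherent monoculture it was 1.07, 2.37, 1.96 and 2.40 FPKM early and 0.27 to 0.63 late, with 0.63 at 216 h and no overlap. *Nfib* was called lower by 1.09 ± 0.27 in SFEB (limma, adjusted p = 0.0012) and by 1.00 ± 0.21 in adherent monoculture (limma, adjusted p = 0.00093). Within the first SFEB series the difference was -1.71 ± 0.21 (limma, adjusted p = 1.8e-05), and within the parallel series -0.27 ± 0.43 (limma, adjusted p = 0.66).

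*Nfia* was low for most of the course. In SFEB it was 1.18, 1.47 and 0.96 FPKM at 0, 1 and 2 h of the first series, below 0.3 FPKM from 34 to 106 h of both series, and 1.02, 2.02, 0.99 and 3.35 at 126, 142, 144 and 216 h. In adherent monoculture it stayed under 0.75 FPKM until 140.5 h and was 1.88 and 1.76 at 144 and 216 h. The highest values were thus those of 142 and 216 h in SFEB and of 144 and 216 h in adherent monoculture. Marker sums of other cell types were also high in these 2 adherent libraries, with endoderm at 43.7 and 28.6 FPKM against 9.95 at 140.5 h, mesoderm at 24.7 and 12.3 against 1.58 and glia at 27.9 and 19.5 against 10.3, and their part in the *Nfia* values was not tested. The late to early difference of 0.31 ± 0.23 in SFEB was not called (limma, adjusted p = 0.26), and its late window spans 0.18 to 3.35 FPKM. In adherent monoculture *Nfia* did not pass the filter, and with no filter it was called higher by 0.55 ± 0.20 (limma, adjusted p = 0.029). *Nfic*, the remaining NFI gene, fell from 5.08 to 9.39 FPKM early to 0.82 to 3.28 late in SFEB, a difference of -1.70 ± 0.19 (limma, adjusted p = 3.5e-07).

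The fall of *Nfix* ran beside that of fibroblast markers. The 10 fibroblast markers summed to 1144 and 1092 FPKM in the 0 h SFEB populations, 482 at 8 h, 149 at 22 h and 33.2 at 42.5 h, where *Nfix* was 5.23 and 5.10, 2.55, 1.41 and 0.30 FPKM. All 10 were called lower in late SFEB samples and 8 of 10 in adherent monoculture, and at 142 h of the first SFEB series 7 of the 10 were below 1 FPKM. At 216 h in SFEB, where *Nfib* was 4.94, *Nfia* 3.35 and *Nfix* 1.03 FPKM, the sum was 112, against 43.6 at 144 h. The sum of the 3 glial markers in the SFEB files was 14.5 FPKM in this 216 h population, against 7.10 at 144 h, 6.15 to 7.98 in the other late SFEB samples and 4.12 to 10.3 early. Its neuronal sum was 952 FPKM, against 354 at 144 h, and the part of these cell types in the NFI values was not tested. In E14 cells at day 0 the fibroblast sum was 0.27 to 5.88 FPKM, and *Nfib* was 1.90 to 3.76 and *Nfix* 0.31 to 1.296. Whether fibroblast RNA has a part in the early NFI values of R1 cells was not tested.

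**Figure D3:**
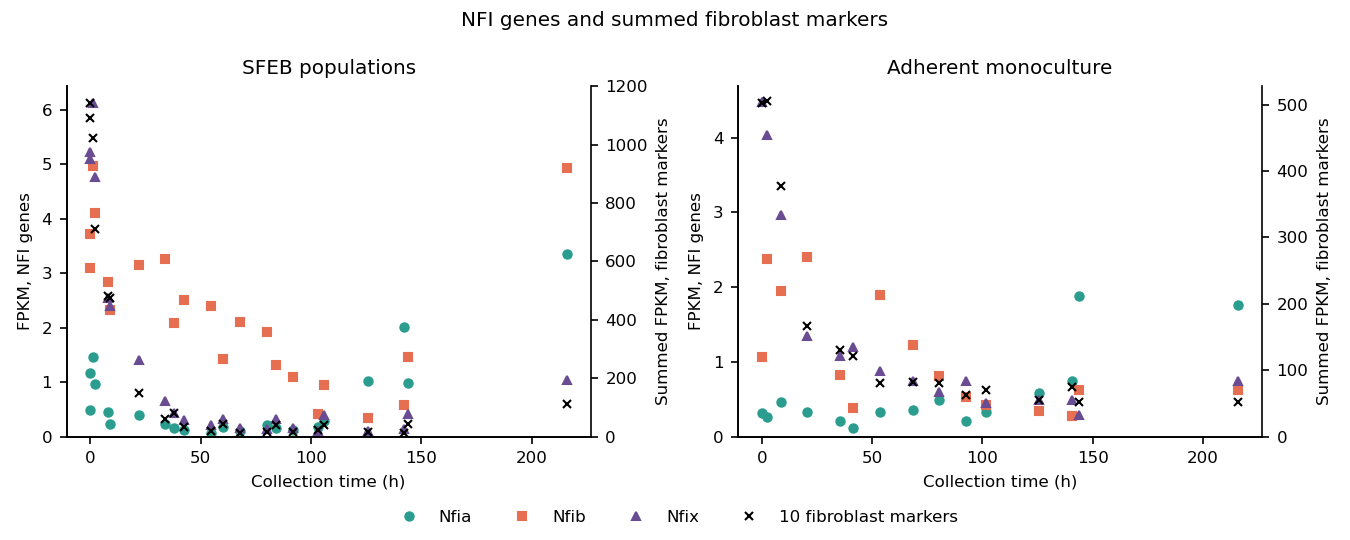
FPKM of *Nfia*, *Nfib* and *Nfix* (left y axis) and the summed FPKM of 10 fibroblast markers (right y axis, crosses) against collection time in SFEB populations of both series and in adherent monoculture, 1 library per point. *Nfix* and the marker sum both start high and are low by 50 h, and the 216 h SFEB population has *Nfib* at 4.94 and *Nfia* at 3.35 FPKM.

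The spans of *Nfia*, *Nfib*, *Nfix* and *Meis1*, introns included, overlap other annotated genes, and the library kit does not mark strand. Overlap of exons was not checked, so whether reads of these partners enter the values is not known. *Nfia* (chr4:97439425-97868605, plus strand) shares its span with *E130114P18Rik* on the other strand, *Nfib* (chr4:81936077-82351654, minus strand) with 5 non-coding genes, *Nfix* (chr8:87223775-87324243, minus strand) with *Lyl1* and *G430095P16Rik*, and *Meis1* with *Gm16140* and *Gm16141*.

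Genes listed as acting downstream of these factors were also read. Of 12 such genes, 10 were tested, and 9 were called higher and 1 lower in each system, against 35.5% and 28.1% of all genes in SFEB and 32.5% and 23.6% in adherent monoculture. *Fabp7*, a radial glia fatty acid binding protein, rose by 5.25 ± 0.73 in SFEB and 6.74 ± 0.90 in adherent monoculture, and *Sox3* by 3.43 ± 0.27 and 4.50 ± 0.48. *Slc1a3*, the glutamate transporter of radial glia and astrocytes, rose by 1.25 ± 0.21 and 1.25 ± 0.33. *Zcchc24* fell by 1.60 and 0.92.

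The genes most like each factor over the 22 SFEB populations were sought among 13362 others by Pearson's r on log2(FPKM + 1), as a description only, since all samples share the course of time and many genes follow it. *Pou3f2* was most like *Itgb8* (r = 0.990) and *Nr2f1* (0.990), with r = 0.980 and 0.997 over the 15 adherent samples. *Pou3f3* was most like *Pou3f4* (0.992, 0.985 in adherent samples) and *Ptprn2* (0.991). *Pou3f4* was most like *Ednrb* (0.996) and *2610017I09Rik* (0.994). *Meis1* was most like *Dach1* (0.985) and *Mex3b* (0.984), *Meis2* like *Stxbp4* (0.985) and *Tox3* (0.982), and *Zfp521* like *Mfhas1* (0.991) and *Fignl2* (0.985). *Nfix* was most like *Col16a1* (0.992, 0.980 in adherent samples), a collagen gene, and *Pear1* (0.990). *Nfia* was most like *Tshz2* (0.979) and *Zfp9* (0.971). *Nfib* had the weakest likeness, to *Tspan17* (0.928) and *Fry* (0.926), which dropped to 0.734 and 0.549 over the adherent samples.

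In single SFEB cells *Meis1* was positive in 11 of 64 cells and each of the other 5 factors measured there in 2 to 9. Values are log10(RPKM + 1), and a cell above 1 RPKM was counted as positive. *Meis1* was positive in 0 of the 32 cells up to 60 h, which allows a share of up to about 9.38%. That limit is 3 cells of 32, a rule of thumb and not an exact interval. *Meis1* was positive in 1 of 8 cells at 106 h and in 5 of 8 at both 144 and 216 h (62.5%, exact binomial 95% interval 24.5 to 91.5%). *Pou3f3* was positive in 4 of the 16 cells of 144 and 216 h and in none of the 48 before. Those 4 cells held it at 1.13, 2.43, 1.67 and 1.08 on the log10 scale. *Zfp521* was positive in 3 cells, all of 216 h, with 2.07 in the highest. The intervals and limits cover the counting of cells only, and read depth per cell is unknown. The paper dropped genes detected in too few of the 64 cells, and *Pou3f2*, *Pou3f4* and *Nfia* have no values here. A gene high only late could pass that filter through late cells alone, so these counts are a description.

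*Meis2* was positive in 1 of 8 cells at 38, 60 and 84 h, in 2 at 106 h and in 4 of 16 from 144 h. The highest values before 144 h were 1.67 in a cell of 84 h and 1.39 in a cell of 106 h. *Nfib* was positive in 2 cells and *Nfix* in 2 other cells of 0 h, and *Nfix* again in 2 cells of 144 h, 1 of them at 1.47. No cell of 144 or 216 h was positive for *Nfib*.

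Some late cells held several factors. Of the 16 cells of 144 and 216 h, 8 held 2 or 3 of the 6 factors and 4 held none. *Meis1* and *Pou3f3* were positive together in 3 cells, *Meis1* and *Meis2* in 3 and *Meis1* and *Zfp521* in 2, from 10, 4, 4 and 3 positive cells for *Meis1*, *Pou3f3*, *Meis2* and *Zfp521*. Before 144 h no cell held more than 1. A cell of 216 h, number 16, had 0 for all 6 and held *Pou5f1* at 1.94, the highest of the 8 cells of that time. The median number of genes above 0 was 6145 at 144 h and 7952 at 216 h, against 6927 to 8972 up to 60 h.

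**Figure D4:**
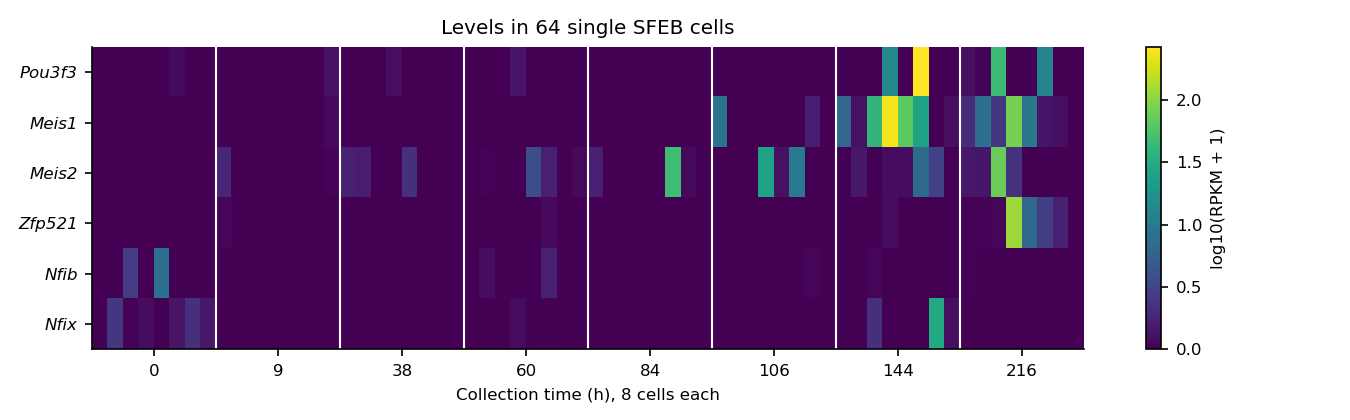
Log10(RPKM + 1) (colour) of 6 factors (rows) in 64 single SFEB cells (columns), ordered by collection time in hours with 8 cells each. *Meis1*, *Pou3f3* and *Zfp521* are above 1 RPKM almost only in cells of 144 and 216 h, and *Nfib* only in 2 cells of 0 h.

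With the mean of the 8 cells of a time point as 1 sample, none of the 6 factors was called between 3 late and 2 early times in limma, where 2 of 11449 genes (0.0175%) were called higher. *Meis1* differed most, by 0.58 ± 0.19 on the log10 scale (limma, adjusted p = 0.19), and 1485 genes had an unadjusted p under 0.05. When time entered as a line, 313 of 11449 genes were called in either direction. *Meis1* was among them, with 0.39 ± 0.11 per 100 h (limma, adjusted p = 0.039). Over the alternatives tried its adjusted p ran from 0.039 to 0.60.

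In E14 cells the deleted gene was read first. *Fyn* was 3.21, 2.74 and 4.00 FPKM in WT and 0.60, 0.60 and 1.10 in KO at day 0, and 9.44, 4.54 and 6.76 in WT and 1.19, 1.13 and 1.58 in KO at day 4. KO libraries were below every WT library at both days, as labelled. The deletion removes the start codon and a long first part of the coding region, and the paper states that no protein is made. Some reads may come from the rest of the gene. Replicate 1 of WT at day 4 stood apart from the other 2. It held *Pou3f2* at 3.86 FPKM against 0 and 0.20, *Pou3f4* at 2.41 against 0 and 0.06, *Pou3f3* at 1.72 against 0.13 and 0.15, *Meis1* at 12.3 against 0.59 and 1.75, *Meis2* at 28.6 against 5.09 and 3.06 and *Zfp521* at 6.89 against 1.09 and 1.76. It also had the lowest pluripotency sum (426 FPKM, against 812 and 790) and the highest neural progenitor sum (259, against 189 and 149) of the 3. Its endoderm sum was 3.17 FPKM, against 22.7 and 32.7 in the other 2 WT libraries of day 4 and 0.72 to 6.40 in KO at day 4. *Snord22*, a small nucleolar RNA gene, was at 255503 FPKM in this library, at 158601 in WT replicate 2 and 218997 in KO replicate 2 of day 4, and listed at 0 in the other 9 E14 libraries. The part of WT replicate 1 in the results was followed by leaving it out.

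Most of the set was near 0 in E14 cells. Only *Nfib*, *Meis2* and *Zfp521* passed the filter over the 12 libraries, so only these were tested with it. From day 0 to day 4 in WT, *Zfp521* rose from 0.023, 0.087 and 0.026 FPKM to 6.89, 1.09 and 1.76, by 1.77 ± 0.43 (limma, adjusted p = 0.012). It passed the filter through day 4 libraries alone. With the filter 1 of 3 factors was called higher, against 15.5% of all 12257 genes. With no filter on low values 1 factor of 9 was, *Zfp521* again (limma, adjusted p = 0.019), and the share of all genes in that fit is not given here. Without WT replicate 1 of day 4 it rose by 1.20 ± 0.31 (limma, adjusted p = 0.023). In KO it went from 0.024, 0.070 and 0.057 FPKM to 0.22, 0.68 and 1.63, by 0.74 ± 0.43 (limma, adjusted p = 0.24), and with or without the filter 0 factors were called higher, against 11.8% of all genes with it. The genotype by day term for *Zfp521* was -1.03 ± 0.60 (limma, adjusted p = 1.00), so the 2 rises were not shown to differ.

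*Nfib* fell in KO cells. It was 3.39, 3.75 and 1.90 FPKM at day 0 and 0.88, 0.61 and 0.45 at day 4, a difference of -1.26 ± 0.28 (limma, adjusted p = 0.011). With the filter it was the 1 factor of 3 called lower, against 7.56% of all genes. With no filter it was the 1 factor of 9 called lower (limma, adjusted p = 0.022), and the share of all genes in that fit is not given here. In WT it went from 3.76, 2.63 and 3.72 FPKM to 3.19, 1.17 and 1.28, by -0.66 ± 0.28 (limma, adjusted p = 0.11), and by -0.96 ± 0.25 without WT replicate 1 of day 4 (limma, adjusted p = 0.026). The genotype by day term was -0.60 ± 0.40 (limma, adjusted p = 1.00). In KO the call was lost without replicate 2 of day 0 (-1.12, limma, adjusted p = 0.054).

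*Meis2* was lower in KO than in WT libraries at both days, without being called. At day 0 it was 6.05, 10.96 and 7.61 FPKM in WT and 0.24, 2.49 and 1.91 in KO, with no overlap, a difference of -1.95 ± 0.64 (limma, adjusted p = 0.19). At day 4 it was 28.6, 5.09 and 3.06 FPKM in WT and 0.51, 0.49 and 1.88 in KO, again with no overlap, a difference of -2.27 ± 0.64 (limma, adjusted p = 0.19). Without WT replicate 1 of day 4 these were -1.95 ± 0.41 (limma, adjusted p = 0.083) and -1.42 ± 0.46 (limma, adjusted p = 0.35). How many of all genes separate WT from KO libraries in this way was not counted, so the lack of overlap is a description only. None of the 3 factors was called between genotypes at day 4, where 0.0653% of 12257 genes were called lower and 1483 genes had an unadjusted p under 0.05, nor at day 0, where 0.131% were called lower and 1785 genes had an unadjusted p under 0.05. The *Meis2* values of the KO line were thus low before induction, and genotype cannot be told apart from clone, as the KO is a clonal line. At day 0 the neuronal marker sum was 121 to 207 FPKM in KO and 24.4 to 86.6 in WT. The neural progenitor sum was 157 to 164 in KO and 123 to 136 in WT, and the other marker sums overlapped. Their part in the *Meis2* values was not tested.

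**Figure D5:**
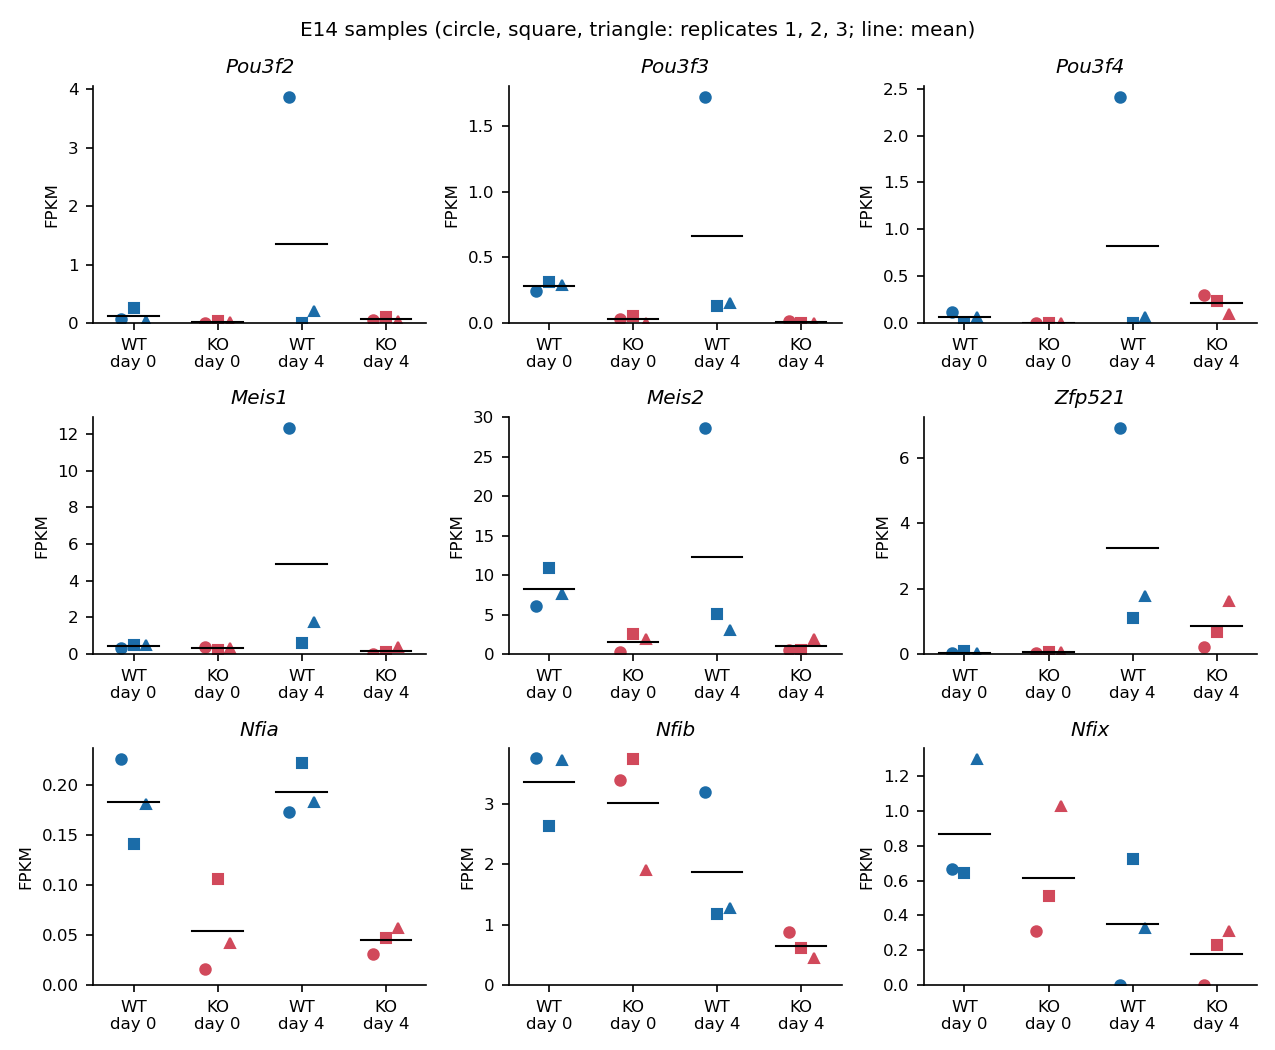
FPKM (y axis) of the 9 genes in each E14 library by genotype and day (x axis), with replicates 1, 2 and 3 as circle, square and triangle and the group mean as a line. Replicate 1 of WT at day 4 is far above the other libraries for *Pou3f2*, *Pou3f3*, *Pou3f4*, *Meis1*, *Meis2* and *Zfp521*. *Meis2* is lower in every KO library than in every WT library of the same day, a difference that was not called.

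The other 6 factors did not pass the filter in E14 cells, and with no filter 0 of the 6 were called between days or genotypes with all libraries in the fit. *Meis1* was 0.30 to 0.50 FPKM in WT and 0.24 to 0.36 in KO at day 0, and 0.026 to 0.40 in KO at day 4. The 3 Pou3f genes were at most 0.31 FPKM in every E14 library but WT replicate 1 of day 4. *Nfia* was 0.14 to 0.23 FPKM in WT and 0.016 to 0.11 in KO over both days, and *Nfix* was 0 to 1.296 FPKM over all libraries. *Pou3f1* did rise in both genotypes, by 3.82 ± 0.42 in WT and 4.40 ± 0.42 in KO (limma, adjusted p = 0.00022 and 0.00019). Over all genes no genotype by day term was called (0% of 12257, with 537 genes at an unadjusted p under 0.05). With the replicate number as a block 2 genes were called, neither of them among the 9, of which 3 were tested.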

How the data were processed

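Reads of R1 samples were mapped by the authors to mm9 with Tophat and summarized with Cufflinks (TopHat2 2.0.8b and Cufflinks 2.1.1 in the submitters' notes, which name mm10 for E14, while the study's methods give older versions of both tools). The deposited adherent and E14 values are FPKM with no stated correction. The deposited SFEB population values are FPKM that ComBat has shifted, some below 0. The deposited single-cell values are on a log10 scale, log10(RPKM + 1), and were quantile-normalized across cells. The 9 genes, the gene lists and the tests were chosen with earlier results of these data known. Groups came from the labels, and windows from the labelled hours (early up to 24 h, late over 100 h). limma 3.58.1 in R 4.3.3 was run with a trended variance on log2(FPKM + 1), for genes reaching 1 FPKM in 3 or more samples, with window and series (SFEB), window (adherent, cells) or the 4 groups (E14), and Benjamini-Hochberg adjustment over all genes. All 9 genes were named, with their family members *Pou3f1*, *Nfic*, *Meis3* and *Zfp423*, *Fyn*, listed genes past the threshold, and the 2 most alike genes. The list of NFI and TALE relatives is given without a gene that is not reported here. Of genes changed by 1 on the log2 scale in simulated data, 91% were recovered in SFEB, 71.6% in adherent monoculture, 61.2% for KO against WT at day 4 and 7.46% in single-cell means, where 48.5% of genes changed by 3 were. Residuals of same-numbered E14 libraries correlated at 0.199, 0.220 and 0.224 for WT at days 0 and 4, and at 0.136, 0.258 and 0.240 for WT and KO at day 4, so a replicate block was tried. They correlated at 0.0239, 0.0899 and 0.00112 for KO at days 0 and 4 and at 0.0628, 0.339 and -0.115 for WT and KO at day 0. Coordinates are from GENCODE M1 and promoters from RefSeq GRCm38.p6. Plots and descriptions used Python 3.11.15.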

Additional observations from a re-analysis of the deposited data

Results flagged for a closer look

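In the 54 window groups of 4 to 9 samples tested for a sample far from the rest, 1 stood out, fewer than the 1 in 20 that chance gives. *Meis2* was 67.2 FPKM at 216 h in adherent monoculture, and the next highest of the 5 late samples was 42.0 FPKM at 144 h. This library is the last of the course and follows the one before by 72 h.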

How the results depend on the processing

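The rises of *Pou3f2*, *Pou3f3*, *Pou3f4*, *Meis1*, *Meis2* and *Zfp521* in SFEB and adherent cultures were called in all 209 fits. Of the values and call counts of the 9 genes recomputed under alternatives, 961 kept direction and side of the threshold, 29 reversed, 7 moved, 3 gained and 2 lost a call. Within the parallel SFEB series 1 gene of 7 tested was called lower in place of 2 of 9 (*Nfib* was lost), where calls over all genes went from 8502 to 2494. With time as a line, 1 gene of 6 tested (*Meis1*) was called higher in cells, where 313 of 11449 genes were called in either direction. Leaving out each library gave 0 to 1 genes called lower in WT and 0 to 1 in KO between days. With no filter and without WT day 4 replicate 1, an alternative chosen after seeing the data, 2 genes were called lower in WT, 1 higher in KO and 1 lower in KO against WT at day 0; apart from *Nfib* these are *Pou3f3* and *Pou3f4*, at or below 0.31 FPKM in the libraries kept. The replicate block, fitted with the filter, changed no call of the 3 genes it tested (0 called between genotypes). Over all genes it gave 38 calls in place of 21 between genotypes at day 0 and 2 in place of 0 for the genotype by day term. Reversed values were all of uncalled differences. *Meis2* from day 0 to day 4 in WT became -0.052 with a pseudocount of 0.1, -0.11 with quantile normalization and -0.85 with no filter and without that replicate, and its genotype by day term then became 0.54. The series by window term of *Pou3f2* became 1.76 with a pseudocount of 0.1. Leaving out each library in turn gave ranges that cross 0: -0.85 to 0.58 for *Meis2* in WT and -0.90 to 0.54 for its genotype by day term; between genotypes at day 0, -0.28 to 0.074 for *Nfib* and -0.0084 to 0.035 for *Zfp521*; for the series by window term, -0.79 to 0.93 for *Pou3f2*, -0.59 to 1.29 for *Pou3f3*, -0.82 to 1.19 for *Pou3f4*, -0.19 to 0.94 for *Meis1* and -0.52 to 0.56 for *Meis2*; and in cells, -0.16 to 0.0041 for *Nfib* and -0.069 to 0.078 for *Nfix*. The cause of these shifts was not tested. Read depth is unknown, and 8 cells a time leave rare cells unseen.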
